A study of Mus musculus with 6 samples.

Results

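The genes of the Mediator complex were followed through a block of transcription in CNOT3-depleted and control mouse embryonic fibroblasts (MEFs). Members were taken by name: every gene whose symbol in the platform annotation is Med followed by digits, with or without a final l, plus Ccnc, Cdk8 and Cdk19. The rule gave 33 genes of the 18193 named on the arrays, each read at its brightest probe set by mean log2 signal over the 6 arrays. All 33 were among the 11062 genes whose 0 h signal (mean log2 of both cultures) reached the median of all probe sets, and these 11062 genes are the background for the counts below.

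Mediator is a large complex of the nucleus that carries signals from DNA-bound transcription factors to RNA polymerase II (Pol II) at promoters. Its head and middle modules contact Pol II, its tail is the main landing place of activators, the scaffold subunit Med14 runs through all of them, and a separable kinase module (Cdk8 or its paralogue Cdk19, cyclin C, Med12 and Med13) binds the core reversibly and keeps it from Pol II. CNOT3 is a subunit of CCR4-NOT, the main deadenylase complex of the cytoplasm, which shortens poly(A) tails as the first step in the decay of most mRNAs.

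The MEFs were primary fibroblasts from mouse embryos with both Cnot3 alleles floxed. A retrovirus carrying Cre gave the CNOT3-depleted MEFs, called CNOT3KD in the labels, and a mock retrovirus gave the control MEFs, which therefore carried no Cre. Both were selected in puromycin for 2 days and sampled before (0 h) and 6 h and 12 h after the addition of actinomycin D (Act. D), an inhibitor of transcription. The labels give the control genotype as wild type, whereas the study's methods describe mock-infected floxed cells, and the second description is used here. Each of the 6 conditions had 1 array, so no difference has a replicate check, an error or a p-value.

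Cnot3 had signals of 239.6, 128 and 82.9 at 0, 6 and 12 h in CNOT3-depleted MEFs, against 436, 193 and 198 in control MEFs, 1.82-fold lower at 0 h. The sources used here do not say whether its probes lie inside the floxed exons. All 7 fibroblast markers listed, among them Col1a1 and Pdgfrb, were above background in every array, and their folds at 0 h lay between 0.80 and 1.30. The summed signal of 5 epithelial markers was between 1199 and 1417 in CNOT3-depleted MEFs and between 435 and 633 in control MEFs. As computed, the fold at 0 h was above 1.5 for 4 of the 5. Among these, Cdh1 and Krt14 had control signals near background (8.35 and 9.92, against a 25th percentile of 19.8), so their folds are uncertain. Krt8 was at 2.60-fold, Krt18 at 2.06-fold and Epcam at 1.06-fold. Most of the 0 h sum was Krt18, with 862 in CNOT3-depleted MEFs and 419 in control MEFs. The summed signal of 6 leukocyte markers was between 2996 and 4295 in CNOT3-depleted MEFs and between 2042 and 4325 in control MEFs. Among the leukocyte markers Ptprc was alike at 0 h (1.04-fold). In CNOT3-depleted MEFs Cd68, Cd14, Lyz2 and Csf1r were 2.06-fold, 1.51-fold, 1.49-fold and 1.32-fold higher. Itgam, near background in 4 arrays, was 3.10-fold lower. The summed signal of 4 endothelial markers was 223 in CNOT3-depleted MEFs and 217 in control MEFs at 0 h. Of these, Tek was 1.77-fold higher and Cdh5 1.58-fold lower in CNOT3-depleted MEFs. The summed signal of 4 muscle markers was 6437 in CNOT3-depleted MEFs and 3584 in control MEFs at 0 h, most of it Acta1 (1.83-fold higher), and that of 4 neural markers was 1351 and 908 in the same order, with Tubb3 1.76-fold higher. The part of other cells in the values below was not tested, and in bulk RNA fewer cells of a type and less RNA per cell cannot be told apart.

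Before Act. D most Mediator genes differed by less than 1.5-fold between the cultures. Med17, a core subunit of the head, was the 1 member whose signal in CNOT3-depleted MEFs was over 1.5-fold higher, against 12.4% of the background genes (19.5% of all 18193 genes). Med18, also of the head, was the 1 member lower by more than 1.5-fold, against 6.77% (15.7% of all genes). The median of the log2 signal ratio, CNOT3-depleted over control, was 0.07 over the 33 genes and 0.08 over the background genes.

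Med17 had a signal of 1535 in CNOT3-depleted MEFs and 979 in control MEFs at 0 h, 1.57-fold higher. Med18, which with Med20 forms the movable jaw of the head, had 287 in CNOT3-depleted MEFs and 438 in control MEFs, 1.52-fold lower. Both lay close to the limit. Next in order among the higher genes were Med21, a middle subunit, at 1.48-fold (1969.9 in CNOT3-depleted MEFs, 1330.2 in control MEFs), and Med29 of the head-tail junction at 1.43-fold. Among the lower genes Cdk19 was next, with 277 in CNOT3-depleted MEFs and 379 in control MEFs, although its dimmer probe set was alike (1.03-fold). It was followed by the middle subunit Med26 with 337 and 454 in the same order. The count of higher genes became 3 when the arrays were divided by their medians (23.1% of all genes), and the count of lower genes became 0 (13.8%).

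The signals spread apart once transcription was blocked. A gene was called stabilized where its 6 h signal in CNOT3-depleted MEFs was between 0.5 and 2.0 times the 0 h signal, and the fraction of the 0 h signal left in CNOT3-depleted MEFs was 2 or more times the control fraction, at 6 h as well as at 12 h. Of the 33 Mediator genes 7 met this rule (21.2%), against 10.6% of the background genes: Med17, Med6 and Med8 of the head, Med4 and Med31 of the middle, Med23 of the tail and Cdk8 of the kinase module. With the cultures exchanged 0 members met it, against 0.479% of the background genes. Stabilization below means log2 of the fraction left in CNOT3-depleted MEFs over that in control MEFs, averaged over 6 and 12 h. Its median was 0.58 over the Mediator genes and 0.13 over the background genes.

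In control MEFs, 10 Mediator genes were at or under 25% of their 0 h signal after 12 h, against 19.9% of the background genes. Med12l is counted among the 10 as computed, although its control signal was near background and gives only a limit of at most 26.9%. In CNOT3-depleted MEFs these were 2 genes, Med13 and Med26, against 6.68%. At or under 50% were 3 members in CNOT3-depleted MEFs (background 16.8%) and 17 members in control MEFs (background 38%). The median signal left at 12 h was 91.1% in CNOT3-depleted MEFs and 49.7% in control MEFs over the Mediator genes, and 95.1% and 72.8% in the same order over the background genes. The Mediator genes thus lay further below the background genes in control MEFs than in CNOT3-depleted MEFs. Because the arrays were deposited with nearly equal trimmed means, a percentage left is measured against the remaining mRNA and may pass 100%. The remaining mRNA shifted more in control MEFs. There the brightest 1% of probe sets held 24.5% of the summed signal at 0 h and 34.1% at 12 h. In CNOT3-depleted MEFs these shares were 24.4% and 26.4%. How far this difference enters the percentages left was not tested.

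**Figure D1:**
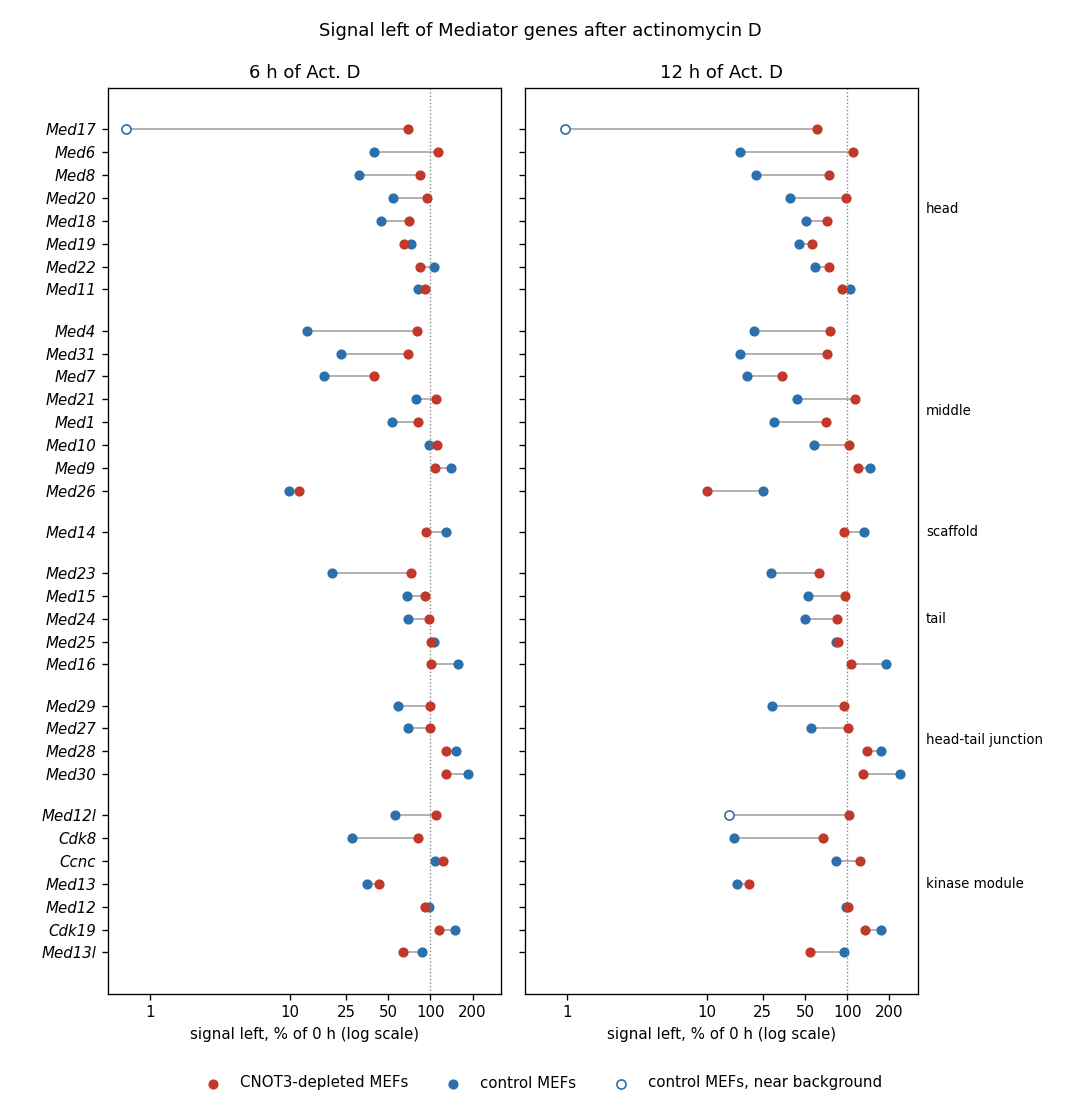
Signal left of each of the 33 Mediator genes, with 6 h of Act. D in the left panel and 12 h in the right one, as % of the 0 h signal of the same culture on a log axis, with genes grouped by module and ordered by stabilization. Red points are CNOT3-depleted MEFs and blue points control MEFs, open where the control signal was near background; at 12 h only 3 red points are at or under 50%, against 17 blue points.

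Med17 showed the widest gap of all 33 genes. Its signals at 0, 6 and 12 h were 1535, 1058 and 940.2 in CNOT3-depleted MEFs, against 979, 6.57 and 9.54 in control MEFs. Both late control signals were under the 25th percentile of their arrays (15.0 and 18.0), here taken as near background, so that only a limit can be given. After 12 h 61.3% was left in CNOT3-depleted MEFs and at most 1.84% in control MEFs. The fraction left was at least 44.9-fold higher in CNOT3-depleted MEFs at 6 h and at least 33.4-fold higher at 12 h.

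Med6, which lies where head and middle meet, had 659, 749 and 726 in CNOT3-depleted MEFs, against 504, 201 and 86.5 in control MEFs. Med8, which anchors the Med18-Med20 jaw, had 3606, 3049 and 2688 in CNOT3-depleted MEFs, against 3089, 958 and 691 in control MEFs. Med6 thus stayed level in CNOT3-depleted MEFs and lost signal at each step in control MEFs, where 17.1% was left at 12 h. Of Med8, 74.5% was left at 12 h in CNOT3-depleted MEFs and 22.4% in control MEFs.

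The other 5 head genes did not meet the rule. Med20 had 1859, 1772 and 1837 in CNOT3-depleted MEFs, against 1778, 968 and 695 in control MEFs, and its ratio of fractions left was 1.75 at 6 h and 2.53 at 12 h. Med18, the gene that was lower at 0 h, had 201 at 6 h and 207 at 12 h in CNOT3-depleted MEFs, close to the 194 and 223 of control MEFs. Its stabilization of 0.58 therefore came with nearly equal late signals and unequal 0 h signals. Med11, Med19 and Med22 had stabilizations between -0.02 and 0.07, although a dimmer Med19 probe set gave 0.63.

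In the middle module, Med4 had 1194, 954 and 894 at 0, 6 and 12 h in CNOT3-depleted MEFs, against 1009, 133 and 219 in control MEFs. Med31, one of the most conserved subunits, had 1348, 928 and 974 in CNOT3-depleted MEFs, against 984, 226 and 168 in control MEFs. At 12 h 74.8% of Med4 was left in CNOT3-depleted MEFs and 21.7% in control MEFs, and for Med31 these were 72.2% and 17.1%. The control signal of Med4 was higher at 12 h than at 6 h, as it was for Med23, Med7 and Med26.

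Med7, the partner of Med21 in the hinge of the middle module, lost signal in both cultures. It had 2049, 804 and 701 in CNOT3-depleted MEFs, against 1952, 337 and 374 in control MEFs. At 6 h its fraction left was 2.27 times that of control MEFs, and at 12 h 1.79 times. Med21 itself had 1969.9, 2142 and 2256 in CNOT3-depleted MEFs, against 1330.2, 1048 and 579.9 in control MEFs, and kept its full signal only in CNOT3-depleted MEFs. Med1, the subunit that nuclear receptors bind, had 1438, 1169 and 1018 in CNOT3-depleted MEFs, against 1742, 924 and 526 in control MEFs. At this probe set it was lower in CNOT3-depleted MEFs at 0 h and higher at 12 h, with a stabilization of 0.92. The next brightest Med1 probe set had 839, 621 and 437 in CNOT3-depleted MEFs, against 1105, 822 and 397 in control MEFs. Its stabilization was 0.26, and those of the dimmer Med1 probe sets that could still be read were 1.47 and 0.18.

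Med26, a docking site for elongation factors, was short-lived with and without CNOT3. Its signals were 337, 39.0 and 33.4 in CNOT3-depleted MEFs, against 454, 44.6 and 113 in control MEFs. At 6 h 11.6% was left in CNOT3-depleted MEFs and 9.83% in control MEFs, and the fractions were apart at 12 h, with 9.93% and 24.9% left in the same order. Med10, a small middle subunit, had 103% left in CNOT3-depleted MEFs and 57.6% in control MEFs at 12 h. Med9, also of the middle, was above 100% at both times in both cultures at its chosen probe set. A dimmer Med9 probe set had 39.4% left in CNOT3-depleted MEFs and 49.7% in control MEFs at 12 h.

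In the tail, Med23, a target of the activators ELK1 and E1A, had 779, 567 and 486 in CNOT3-depleted MEFs, against 643, 128 and 185 in control MEFs. It was the tail gene that met the rule, with 62.4% left in CNOT3-depleted MEFs and 28.7% in control MEFs at 12 h, and it no longer met it after quantile normalization, at a stabilization of 1.07. Med15, through which SREBP acts, and Med24 had smaller gaps at their chosen probe sets, with stabilizations of 0.65 and 0.63. A dimmer Med15 probe set had a stabilization of -0.23. At 12 h it had 8.72% left in CNOT3-depleted MEFs and 12.2% in control MEFs. Med25 was nearly equal at its chosen probe set, with 86.1% left in CNOT3-depleted MEFs and 82.8% in control MEFs at 12 h. Its other probe set had 54.6% and 41.5% left in the same order, a stabilization of 0.36.

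Med16, also of the tail, had the lowest stabilization of the 33 genes, -0.73. Its signals were 655, 663 and 694 in CNOT3-depleted MEFs, against 574, 904 and 1078 in control MEFs. In CNOT3-depleted MEFs it stayed level (106% left at 12 h), and in control MEFs it stood at 188% of its 0 h signal.

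**Figure D2:**
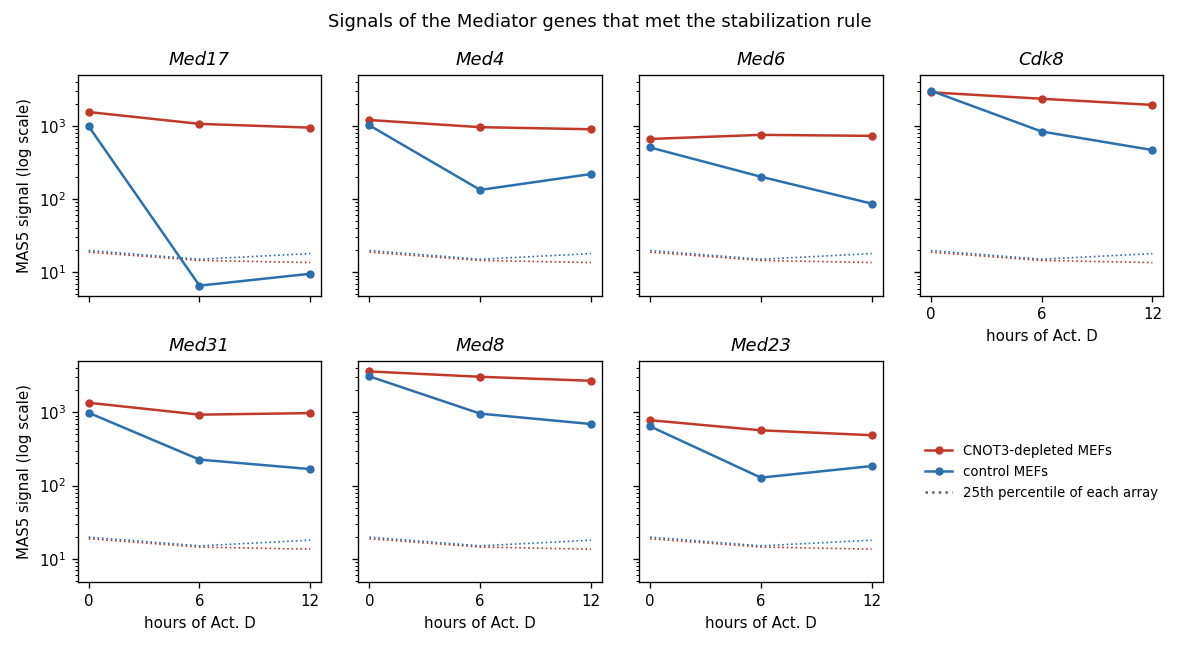
MAS5 signals of the 7 Mediator genes that met the stabilization rule, on a log axis, over 0, 6 and 12 h of Act. D, with CNOT3-depleted MEFs in red and control MEFs in blue, 1 array per point, with the 25th percentile of each array dotted. The Med17 control signals at 6 and 12 h lie under the dotted line, at 6.57 and 9.54, and every red line stays far above it.

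The 4 genes of the head-tail junction differed among themselves. Med29 had 1066, 1051 and 1017 in CNOT3-depleted MEFs, against 744, 436 and 218 in control MEFs. Med30 had 1562, 2007 and 2040.3 in CNOT3-depleted MEFs, against 1645, 3030.1 and 3926 in control MEFs. The ratio of fractions left of Med29 was 3.26 at 12 h and 1.68 at 6 h, whereas the fraction left of Med30 was lower in CNOT3-depleted MEFs (131%) than in control MEFs (239%). Med27 had 101% left in CNOT3-depleted MEFs and 55.1% in control MEFs at 12 h, and Med28 had 139% and 174% in the same order.

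The scaffold gene Med14 had 1229, 1150.2 and 1164 in CNOT3-depleted MEFs, against 1504, 1933 and 1997 in control MEFs. At this probe set its fraction left was lower in CNOT3-depleted MEFs at both times, with a stabilization of -0.47. The dimmer Med14 probe sets that could still be read had stabilizations of -1.20, -0.68 and 0.58. Their 0 h signals in CNOT3-depleted MEFs were 2.04, 1.32 and 0.79 times those of control MEFs, in the same order. Of the 33 genes, 7 had a lower fraction left in CNOT3-depleted MEFs at both times, against 35.4% of the background genes: Med14, Med9, Med16, Med28, Med30, Cdk19 and Med13l. The fraction left was higher at both times for 20 genes, against 45.7% of the background genes. In 5 genes (15.2%) the 6 and 12 h signals lay on opposite sides of the 0 h signal in the cultures, against 11.8% of the background genes.

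**Figure D3:**
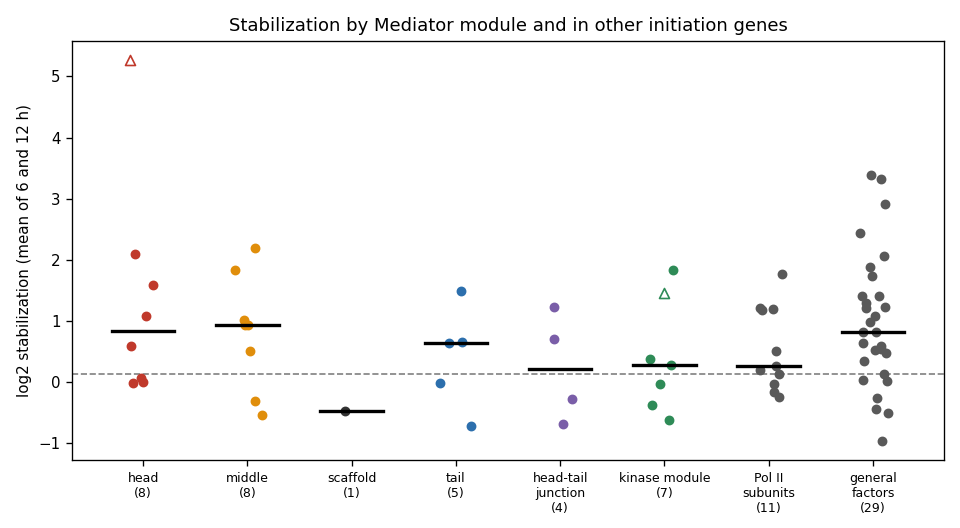
Log2 stabilization of each Mediator gene by module, and of the Polr2 genes (labelled Pol II subunits) and general transcription factors, with the number of genes in brackets. Bars are medians, the dashed line is the background median of 0.13, and open triangles are lower bounds (Med17 at 5.27 and Med12l at 1.45, with the last 2 lists as computed); the head (0.83) and middle (0.93) medians stand above the kinase module (0.28) and the junction (0.21).

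The modules overlapped widely in stabilization. The median was 0.83 over the 8 head genes, of which 3 met the rule, and 0.93 over the 8 middle genes, of which 2 met it. It was 0.63 over the 5 tail genes, 0.28 over the 7 genes of the kinase module and 0.21 over the 4 junction genes, of which 0 met the rule. At 12 h the middle genes had a median of 73.5% left in CNOT3-depleted MEFs and 27.6% in control MEFs, whereas the kinase module had 101.9% and 83.4% in the same order. The middle, tail, junction and kinase modules each held members on both sides of 0. In the head Med11 and Med22 were just below 0, at -0.024 and -0.0058. Both were above 0 with arrays divided by their median or by the ribosomal protein genes. After quantile normalization they were at -0.39 and -0.32, and Med19 was at -0.36.

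In the kinase module the paralogues behaved differently. Cdk8, the kinase, had 2852, 2330.0 and 1919 at 0, 6 and 12 h in CNOT3-depleted MEFs, against 3002, 832 and 465 in control MEFs. Its paralogue Cdk19 had 277, 322 and 373 in CNOT3-depleted MEFs, against 379, 569 and 661 in control MEFs. After 12 h 67.3% of Cdk8 was left in CNOT3-depleted MEFs and 15.5% in control MEFs, at 0 h signals that differed by 1.05-fold. At this probe set Cdk19 was above 100% in both cultures and lower in CNOT3-depleted MEFs in each of the 3 pairs of arrays. At a dimmer Cdk19 probe set the 0 h signals were alike, 165 in CNOT3-depleted MEFs and 160 in control MEFs, with a stabilization of -0.65.

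Med12, which activates the kinase together with cyclin C, had 423, 387 and 431 in CNOT3-depleted MEFs, against 341, 336 and 336 in control MEFs. Its paralogue Med12l had 91.6, 99.6 and 95.1 in CNOT3-depleted MEFs, against 66.8, 37.4 and 9.56 in control MEFs. Med12 was thus level in both cultures. Med12l was level in CNOT3-depleted MEFs and lost in control MEFs, to near background at 12 h, where at most 26.9% was left and the fraction left was at least 3.86-fold higher in CNOT3-depleted MEFs. Its ratio at 6 h was 1.94, just outside the rule.

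Med13, which links the kinase module to the core, had 800.4, 341 and 159 in CNOT3-depleted MEFs, against 867.5, 306 and 142 in control MEFs. Its paralogue Med13l had 1703, 1094 and 927 in CNOT3-depleted MEFs, against 2243, 1967 and 2118 in control MEFs. Med13 was lost alike in both cultures at this probe set, with 19.9% left in CNOT3-depleted MEFs and 16.4% in control MEFs at 12 h. Med13l was the reverse of the stabilized genes at this probe set, with 54.4% left in CNOT3-depleted MEFs and 94.4% in control MEFs. Ccnc, which encodes cyclin C, had 757, 930.3 and 936 in CNOT3-depleted MEFs, against 757, 816 and 632 in control MEFs, a stabilization of 0.38. At a pair of dimmer Ccnc probe sets that could still be read, the 0 h signal was lower in CNOT3-depleted MEFs, 0.78 and 0.65 times that of control MEFs, and the stabilizations were -0.021 and -0.0044.

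**Figure D4:**
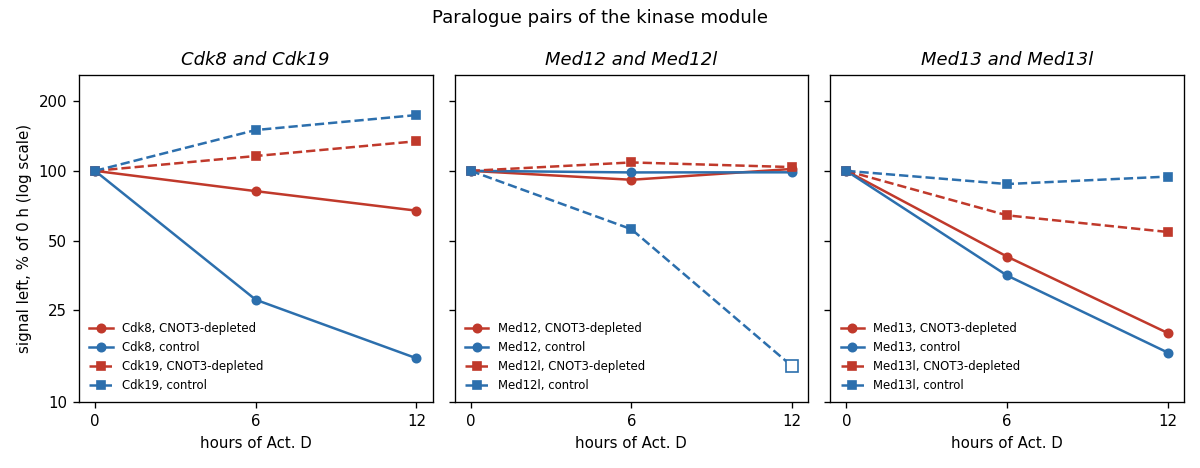
Signal left (% of 0 h, log axis) of the 3 paralogue pairs of the kinase module over 0, 6 and 12 h of Act. D, CNOT3-depleted MEFs in red and control MEFs in blue, with Cdk19, Med12l and Med13l dashed and a near-background value open. Cdk8 and Med12l are the genes whose blue line falls away from the red one, Med13 is low in both cultures, and for Cdk19 and Med13l the red line lies under the blue one.

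By 12 h the gaps had turned into different signals. Of the 33 genes, 18 had a signal over 1.5-fold higher in CNOT3-depleted MEFs, against 40.2% of the background genes, and 6 had a signal more than 1.5-fold lower (Cdk19, Med13l, Med14, Med16, Med26 and Med30), against 20.2%. At 6 h these were 15 genes (background 33.9%) and 5 genes (background 11.9%). The median log2 ratio of the signals was 0.82 over the Mediator genes and 0.26 over the background genes at 12 h, whereas at 6 h it was 0.20 and 0.21 in the same order. The summed signal of the 33 genes was 43173, 39809 and 38744 in CNOT3-depleted MEFs, against 41131, 32256 and 30239.5 in control MEFs.

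The stabilized genes were, with 1 exception, slightly brighter in CNOT3-depleted MEFs before Act. D. For 6 of the 7 the log2 ratio at 0 h was above 0. The same held for 20 of all 33 members and for 6446 of the 11062 background genes. The exception was Cdk8, at -0.07 as deposited. With arrays divided by their median or by the ribosomal protein genes, its ratio was 0.014 or 0.016. The median of the 7 was 0.28, against 0.02 over the other 26 members. Across the 33 genes the log2 ratio at 0 h and the stabilization had a Pearson's r of 0.58 and a Spearman's rho of 0.60 (0.54 and 0.56 without Med17), whereas across the 11062 background genes they had 0.00 and 0.01. Genes are not independent replicates, and both measures use the 0 h arrays, which enter them with opposite sign.

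**Figure D5:**
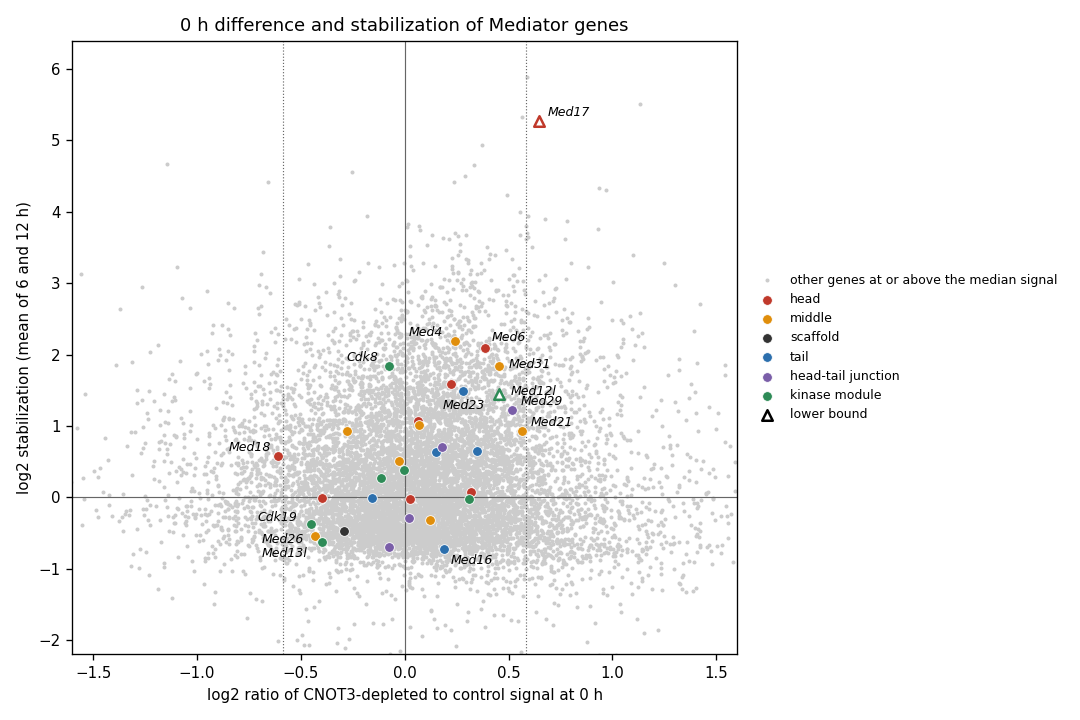
Log2 ratio of CNOT3-depleted to control signal at 0 h (x axis) against log2 stabilization (y axis) for the Mediator genes, coloured by module, with other background genes in grey as computed (116 of 11029 lie outside the axes). Dotted lines mark 1.5-fold and open triangles are lower bounds; Med17 stands highest of the Mediator genes, and the lower left holds Cdk19, Med26, Med13l and Med14.

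Probe sets of 1 gene did not always agree in value. The 33 genes had 72 probe sets, and 14 genes had only 1. Of the 39 probe sets not chosen, 21 were bright enough to be read, 13 with the same sign of stabilization as the chosen one and 8 with the opposite sign. Of these 21, 2 met the stabilization rule. A further probe set of Med6 had 545, 629 and 566 in CNOT3-depleted MEFs, against 437, 189 and 51.7 in control MEFs, close to the course of the chosen one. A further probe set of Med13 had 345, 191 and 147 in CNOT3-depleted MEFs, against 251.5, 52.1 and 36.2 in control MEFs, and so met the rule where the brighter one did not. Another Med13 probe set went the other way, with 102, 29.4 and 32.2 in CNOT3-depleted MEFs, against 87.8, 32.0 and 90.3 in control MEFs. Its stabilization was -1.03.

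Med20 was alike at both of its probe sets, with stabilizations of 1.07 and 1.05. Med8 was not: its dimmer probe set had 120.1, 114 and 65.3 in CNOT3-depleted MEFs, against 124, 84.0 and 99.9 in control MEFs, a stabilization of -0.042. Of the further Med13l probe sets, the brighter one had a stabilization of -0.40, near the -0.62 of the chosen one. The dimmer one went the other way, with 72.4, 10.6 and 32.7 in CNOT3-depleted MEFs, against 172.5, 1.95 and 1.65 in control MEFs, where all late signals but the 32.7 were near background. The other probe set of Med17 was too dim to be read, at 22.7, 11.5 and 15.4 in CNOT3-depleted MEFs, against 41.7, 20.7 and 5.09 in control MEFs. For Med17 the result therefore rests on 1 probe set, as it does for Med4, Med23, Med31 and Cdk8, which have no other.

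The machinery that Mediator acts on was read in the same way, with lists chosen by name. Of 13 genes with Pol II symbols (Polr2a to Polr2m), 11 were measured, and 2 of these met the stabilization rule, Polr2b and Polr2a, against 10.6% of the background genes. Polr2b, which encodes the second largest subunit, had 3951 at 0 h and 4009 at 12 h in CNOT3-depleted MEFs, against 3278 and 588 in control MEFs. Next by stabilization was Polr2h, a small subunit shared by all nuclear polymerases, at 1.22. The median stabilization of the list was 0.25, less than the 0.58 of the Mediator genes.

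Of 31 general transcription factor genes, 29 were measured and 4 (13.8%) met the rule, Cdk7, Gtf2b, Gtf2e1 and Mnat1, against 10.6% of the background genes. Cdk7, the kinase of TFIIH, had 4384, 2761 and 2263 in CNOT3-depleted MEFs, against 3238, 191 and 162 in control MEFs. Gtf2b, which encodes TFIIB, had 2434, 1974 and 1956 in CNOT3-depleted MEFs, against 1971, 171 and 148 in control MEFs. Their stabilizations were 3.39 and 3.33, above every Mediator gene but Med17. The median of the list was 0.81, with 97.4% left in CNOT3-depleted MEFs and 31.4% in control MEFs at 12 h. With the cultures exchanged 0 genes of either list met the rule. At 0 h 0 genes of either list were over 1.5-fold higher in CNOT3-depleted MEFs, and Gtf2a2 and Taf3, which encode parts of TFIIA and TFIID, were over 1.5-fold lower, with log2 ratios of -0.65 and -0.63, against 6.77% of the background genes.

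The signs of stabilization were checked under 4 scalings of the arrays: as deposited, quantile normalized, divided by the array median, and divided by the ribosomal protein genes. As deposited, stabilization was positive for 21 members, against 6184 of the 11062 background genes. The background shares over all 4 scalings are not given. The 2 divisions raise every gene by the same amount, 0.05 with the median and 0.50 with the ribosomal protein genes. A value that is positive as deposited therefore stays positive under them. Stabilization was positive in all 4 for 20 members and negative in all 4 for Med16, Med30, Med13l and Med26, and 9 members changed sign. Among these 9, Med14, Med9, Med28 and Cdk19 were negative except with the ribosomal protein genes, where they were between 0.03 and 0.21, and that scaling moved the median of all genes by 0.50.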

How the data were processed

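RNA of CNOT3-depleted and control MEFs at 0, 6 and 12 h of Act. D was hybridized as biotin-labelled cRNA to GeneChips for the mouse genome. The deposited intensity values are signals on a linear scale for 45037 probe sets, computed by the authors with MAS5, the tool named in the submitters' processing notes. For its version and scaling target the sources used here say nothing. The trimmed mean (outer 2% left out) was between 494 and 497 in every array, and no deposited value was below 1. No further scaling was applied.

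Probe sets were named with the platform annotation, which gives 1 symbol for 34945 probe sets, several for 932 and none for 9160. Names of the 33 members matched RefSeq gene IDs in 33 cases, and 1 probe set that Med20 shares with another gene was left out. A signal below its array's 25th percentile (13.6 to 19.8) counts as near background, and a fraction left that rests on one is given as a limit against that percentile.

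The members, modules and lists were chosen with earlier results of these data known. Values of all 6 arrays are given for each member that met the stabilization rule or differed more than 1.5-fold at 0 h, the 3 highest and 3 lowest by stabilization, the paralogues, Ccnc, Med14 and Med1. Other genes are examples named after their values were seen. With 1 array per condition no test was run, and precision is limited by how few arrays there are. Counts were repeated under 14 alternatives of scaling, floor, probe set choice and thresholds. Python 3.11.15, numpy 2.4.6, pandas 2.3.3, scipy 1.17.1 and matplotlib 3.10.9 were used, and the scripts were tested on simulated data.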

Additional observations from a re-analysis of the deposited data

Results flagged for a closer look

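For 5 Mediator genes (15.2%) the arrays at 6 and 12 h lay on opposite sides of the 0 h signal in the 2 cultures. That share was close to the 11.8% of the background genes, and with 1 array per condition the difference was not tested. Med6 was at 114% and 110.2% of its 0 h signal at 6 and 12 h in CNOT3-depleted MEFs and at 39.9% and 17.1% in control MEFs, a log2 stabilization of 2.10. Med12l, a dim gene, was at 109% and 104% in CNOT3-depleted MEFs, against 56.0% and, near background at 12 h, at most 26.9% in control MEFs. Its log2 stabilization is 1.91 as computed and at least 1.45 with that limit. Med21 was at 109% and 115% in CNOT3-depleted MEFs and at 78.8% and 43.6% in control MEFs, a log2 stabilization of 0.93. Med10 was at 111% and 103% in CNOT3-depleted MEFs and at 97.8% and 57.6% in control MEFs, a log2 stabilization of 0.51. At its chosen probe set the scaffold gene Med14 went the other way, with a log2 stabilization of -0.47. It was at 93.6% and 94.7% in CNOT3-depleted MEFs and at 129% and 133% in control MEFs. Over the 4 scalings of the arrays, the median signal left of the 33 genes at 12 h was between 81.8% and 130.0% in CNOT3-depleted MEFs and between 29.7% and 71.9% in control MEFs.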

How the results depend on the processing

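The count of 7 stabilized Mediator genes became 12 with arrays divided by the ribosomal protein genes (19.5% of the background genes) and 11 at 1.5 times (18.7%). It became 2 at 3 times (Med17 and Med4, 4.53%) and 12 from the 12 h array alone (22.4%). In the other settings it was between 6 and 8 (6 without Med23 after quantile normalization). The background share in those settings was between 7.75% and 13%. With the cultures exchanged the count was 0 except for 1 gene, Med16, at 1.5 times (4.37% of the background genes). The count of 1 higher gene at 0 h became 2 after quantile normalization (21.3% of all genes). It became 3 (Med17, Med21 and Med29) with arrays divided by their median (23.1%) or by the ribosomal protein genes (23.2%). It became 0 at 2-fold (10.4%) or with each gene at the median of its probe sets (19.6%). The count of 1 lower gene became 0 with either division (13.8% of all genes) and at 2-fold (8.79%). It became 6 with the median over probe sets (Ccnc, Med1, Med12l, Med18, Med26 and Med29, against 17.9% of all genes in that setting). The median stabilization of 0.58 became 0.26 after quantile normalization and 1.08 with the ribosomal protein genes. It became 0.44 at 6 h alone and 0.76 at 12 h alone. Without probe sets of suffix _s_at, _x_at or _a_at it became 0.40, over the 30 members that still had a probe set. It was 0.58 with signals floored at the 25th percentile. It exceeded the background median by 0.45 as deposited, a difference that dividing arrays by a constant cannot move, and by 0.27 after quantile normalization. For single genes, the log2 ratio of Med17 at 0 h turned to -0.12 with the median over probe sets, and the stabilization of Med8 to -0.042 without its _a_at probe set, where a dimmer one is read. In the other lists the 2 stabilized Pol II genes became 0 after quantile normalization or division by the median and 3 with the ribosomal protein genes. The 4 general factors became 6, 7 and 11 in the same order. The share of the background genes was 7.75%, 11.1% and 19.5% under these scalings. Beyond these constructions the cause of each shift was not tested. No paired analysis was possible because each condition has 1 array. The closest limits are Med12l, near background in 1 control array, and Med17, near background in 2.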
